A study of Arabidopsis thaliana with 12 samples.

Results

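The transcripts described here are those of the plastid and mitochondrial genomes of Arabidopsis thaliana, as read by 1 block of consecutively numbered probe sets on the Affymetrix ATH1 array, a chip whose probe sets are groups of short probes that together report 1 transcript. The block is the lowest-numbered stretch of the gene probe sets and holds 126 of the 22810 probe sets on the array. Of these, 5 were annotated only to a nuclear locus and were left out, which gave 121 members chosen by their number and annotation and not by their values. The annotation named 73 members as plastid genes and 13 as mitochondrial genes. The other 35 carried no gene name and are given by probe set ID. The 73 plastid members cover 72 gene symbols, because rps12, whose transcript is joined from separate precursors, has 2 probe sets. One mitochondrial member was annotated to both rps3 and rpl16.

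Chloroplasts and mitochondria keep small genomes of their own, which encode core subunits of photosynthesis and respiration and part of the machinery that expresses them, while most organelle proteins are nuclear-encoded and imported. Plastid genes are transcribed by a bacterial-type polymerase with plastid-encoded core subunits and by phage-type polymerases encoded in the nucleus, mostly as polycistronic units whose transcripts are then cut, spliced, edited and trimmed. Because the messages of a unit are processed and degraded separately, genes transcribed together can reach different levels. Organelle messages carry no stable poly(A) tail, and how the RNA was primed for labelling is not given in the sources used here, so a level below is that of the labelled RNA.

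The study compared rosette leaves of wild-type Columbia plants aged 7 weeks, 1 array per plant and 3 plants per group. All plants were first kept under constant light at 24 °C for 72 h. For the next 150 min the groups differed in the formaldehyde in their air, given here in ppm. Plants were kept outside (room air below 0.08 ppm) or inside a 10 L chamber. The chamber held clean air (below 0.04 ppm), or formaldehyde at low exposure (1 to 2 ppm) or high exposure (14 to 16 ppm). The labels give no batch or chamber run. Plants of a chamber condition may have shared 1 run, and that run and its group could then not be told apart. Each p-value rests on the spread between plants within groups, pooled over the 4 groups. It measures no spread between runs that each served a whole group.

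Values are log2 expression as deposited. Correlations within groups over all probe sets ran between 0.985 and 0.996, and no 2 arrays were identical. The median over the tested plastid members lay between 11.75 and 12.04 on the high exposure arrays, between 11.34 and 12.02 on the low exposure arrays, between 11.78 and 11.93 on the clean air arrays and between 11.44 and 11.96 on the arrays from outside. Single plants moved much of the plastid block at once: of 69 tested plastid members, plant 1 was the lowest of its group for 46 at high exposure and for 55 at low exposure, plant 3 for 51 under clean air, and plant 2 for 56 outside the chamber. The 3′ minus 5′ signal of the actin, GAPDH and ubiquitin control probe sets, a measure of RNA integrity and labelling, was 2.77 ± 0.25 at high exposure, 2.67 ± 0.10 at low exposure, 2.42 ± 0.07 under clean air and 2.30 ± 0.04 outside (log2, SD, n = 3 each). It was highest on the array of high exposure plant 1, at 3.05. Its part in the results below was not tested.

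A member was tested when its log2 value exceeded 4 on at least 3 of the 12 arrays, and called when its adjusted p in a limma fit over all 13874 such probe sets was under 0.05. Of the 121 members, 85 were tested: 69 plastid, 7 mitochondrial and 9 unnamed. The 4 plastid members that stayed below 4 on every array were ycf2, ndhB, ndhF and rps14. One of the tested members, unnamed 244990_s_at, passed the filter through the high exposure plants alone.

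At high exposure organelle transcripts were called in both directions relative to clean air. Of the 85 tested members, 46 (54.1%) were called between high exposure and clean air, 27 higher and 19 lower, against 52.9% of all probe sets tested. At least a 2-fold difference was reached by 27 called members, 16 higher and 11 lower, against 29.1% of all probe sets. The 3 arrays of each group did not overlap for 55 members, against 62.9% of all probe sets. The share of members called was close to that of the array as a whole, so the count says nothing particular to organelle genes. Higher calls made up 22.8% and lower calls 30.1% of all probe sets. The median difference over the members was 0.09, against -0.10 over all probe sets. Leaving out any 1 plant gave between 35 and 49 member calls, and 29 of the 46 calls were made whichever plant was left out.

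Low exposure called 18 members against clean air, 13 higher and 5 lower, which is 21.2% of those tested against 23.2% of all probe sets (11.8% higher and 11.4% lower). That count rested on single plants: it was 8 without clean air plant 3 and 11 without low exposure plant 2, and 8 of the 18 calls were made whichever plant was left out. Between high and low exposure, 34 members were called, 19 higher and 15 lower at high exposure, which is 40.0% of those tested against 49.8% of all probe sets (21.1% higher and 28.7% lower). The high and low comparisons share the clean air plants, so their values are given side by side without counting shared calls. As these are whole leaves, fewer organelles or cells of a kind and less RNA per organelle cannot be told apart.

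**Figure D1:**
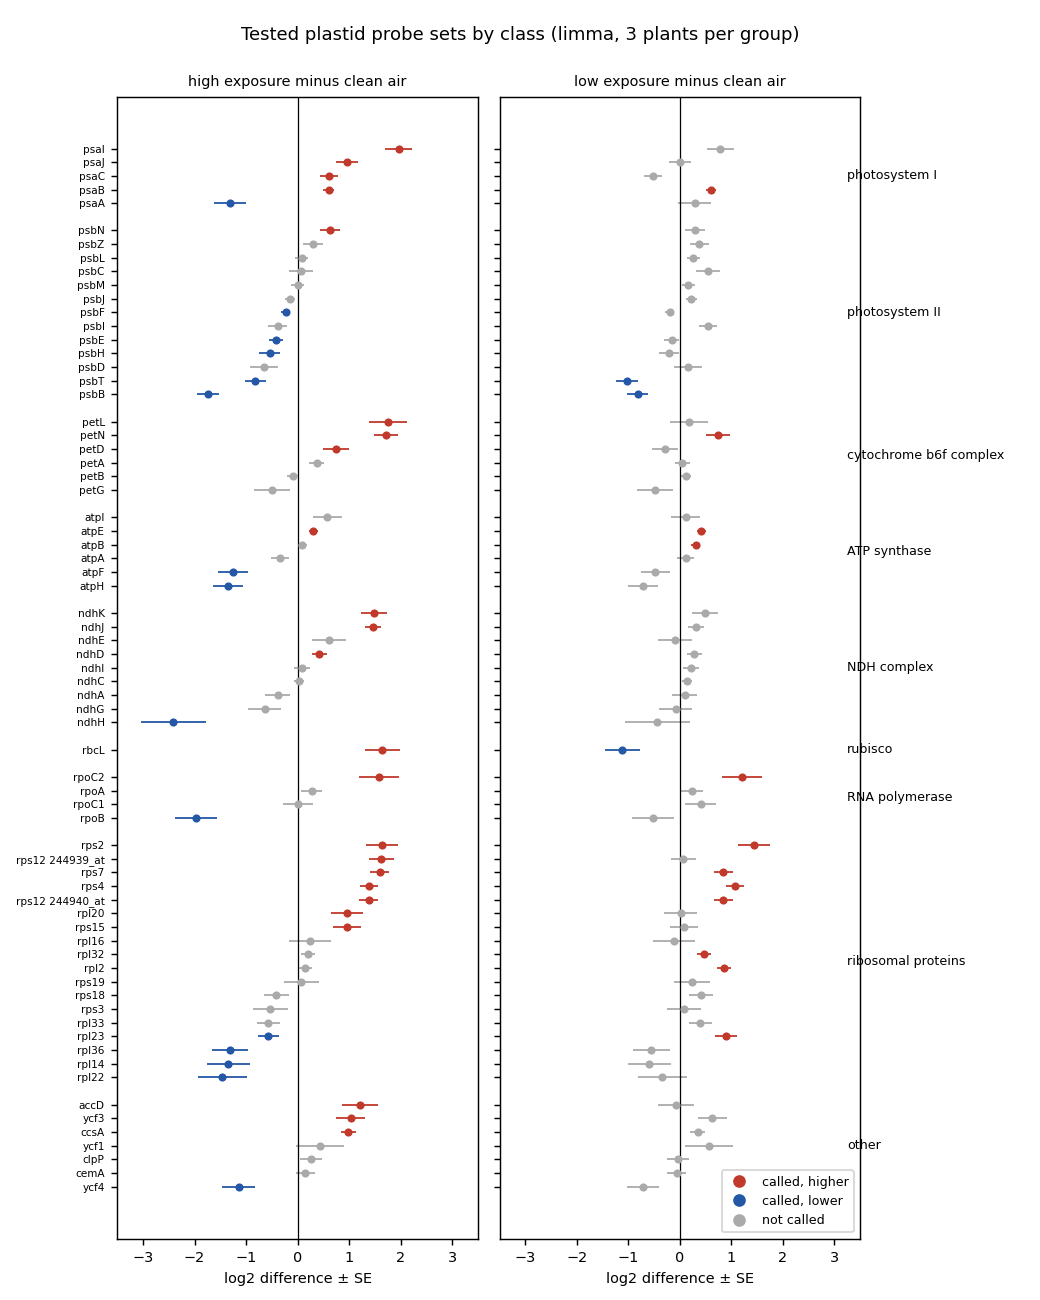
Log2 difference ± SE of each tested plastid probe set, by class, for high exposure minus clean air (left) and low exposure minus clean air (right). Red points were called higher, blue points lower and grey points were not called. At high exposure the values run between -2.42 for ndhH and 1.96 for psaI, and most classes hold points on both sides of 0.

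Photosystem I, which passes electrons to ferredoxin at the end of the light reactions, had all 5 of its tested plastid genes called at high exposure. Of these, 4 were higher and 1 lower, where 52.9% of all probe sets were called. The largest rise was that of psaI, a small membrane subunit, at 12.70, 12.41 and 12.63 in the high exposure plants, against 10.80, 10.64 and 10.42 in the clean air plants, a difference of 1.96 ± 0.26 on the log2 scale or 3.90-fold (SE, adjusted p = 0.000112). The low exposure plants, at 11.01, 11.38 and 11.82, all lay above the clean air plants and below the high exposure plants. Their difference of 0.78 from clean air missed the threshold (adjusted p = 0.0508). The call was made without low exposure plant 1 and without outside plant 2 (adjusted p down to 0.0174 when 1 plant was left out). The other small membrane subunit, psaJ, had 13.71, 13.82 and 13.99 at high exposure, against 12.78, 13.06 and 12.79 under clean air, and rose by 0.96 ± 0.21 (adjusted p = 0.00267).

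The reaction centre of photosystem I is a heterodimer of the psaA and psaB products, whose genes lie side by side in 1 transcription unit with psaA first. These neighbours moved in opposite directions at high exposure. psaA had 10.73, 11.36 and 12.32 at high exposure, against 12.78, 12.79 and 12.76 under clean air, and fell by 1.31 ± 0.31 (adjusted p = 0.00471). All high exposure plants were below all clean air plants, but they were spread over more than 1 log2 unit while the clean air plants were nearly equal, and the difference ran between -1.73 and -0.93 as single plants were left out. psaB had 14.64, 14.60 and 14.81 at high exposure, against 14.06, 14.12 and 14.08 under clean air, and rose by 0.60 ± 0.10 (adjusted p = 0.000453). With the arrays scaled to spike-in controls the psaB call was lost at both doses (adjusted p = 0.0547 at high exposure and 0.0947 at low exposure). At low exposure psaB was as high, with 14.59, 14.71 and 14.77 and a rise of 0.61 over clean air (adjusted p = 0.00302), whereas psaA, at 12.96, 12.94 and 13.27, was not called (0.28, adjusted p = 0.547). Between high and low exposure psaA fell by 1.59 ± 0.31 (adjusted p = 0.00169).

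psaC, which encodes the subunit that holds the terminal iron-sulphur clusters, had 12.19, 11.97 and 12.28 at high exposure, against 11.59, 11.62 and 11.39 under clean air. Every high exposure plant was above every clean air plant, and psaC rose by 0.61 ± 0.18 (adjusted p = 0.0138). The call was lost without high exposure plant 3 (0.54, adjusted p = 0.0501) and with spike-in scaling (adjusted p = 0.142). The low exposure plants, at 10.70, 11.15 and 11.17, all lay below the clean air plants, a difference of -0.53 that missed the threshold (adjusted p = 0.0556) and was called without outside plant 1 or 2 (adjusted p down to 0.0366). Between high and low exposure psaC rose by 1.14 ± 0.18 (adjusted p = 0.000422), whichever plant was left out.

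**Figure D2:**
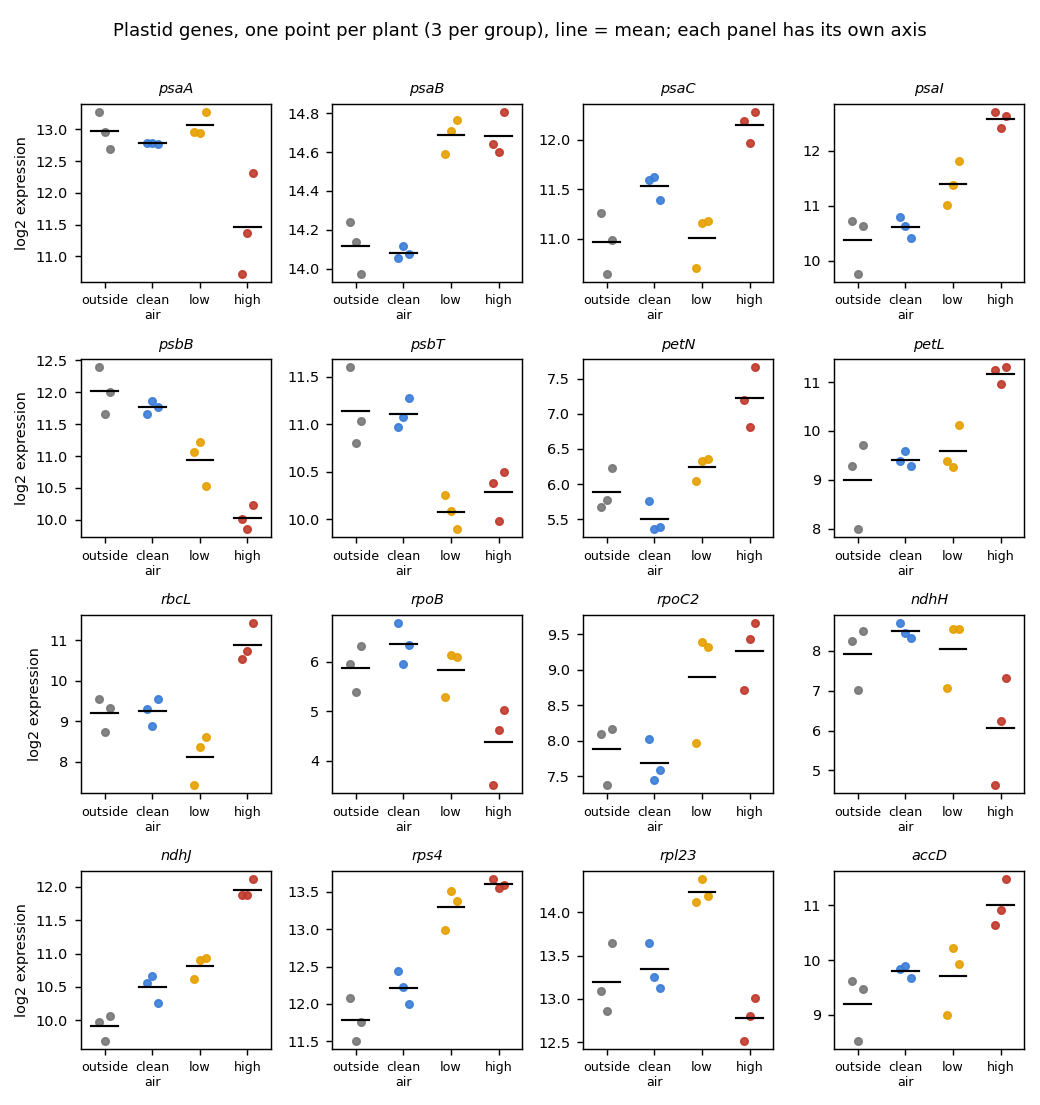
Log2 expression of 16 plastid genes in each plant (points) with the group mean (line), for plants outside the chamber and under clean air, low (1 to 2 ppm) and high (14 to 16 ppm) formaldehyde. Each panel has its own vertical axis. psaA and psaB separate at high exposure, and rbcL is lowest at low exposure and highest at high exposure.

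Photosystem II, the water-splitting complex, had 6 of 13 tested genes called at high exposure, 1 higher and 5 lower, where 52.9% of all probe sets were called and lower calls were the more frequent. The median difference was -0.23 (-0.10 over all probe sets), and all of the calls but those of psbB and psbT were lost when single plants were left out. The deepest fall was that of psbB, which encodes an inner antenna protein of the core. It had 10.01, 9.85 and 10.23 at high exposure, against 11.66, 11.87 and 11.77 under clean air, a difference of -1.73 ± 0.21 (adjusted p = 6.14e-05). At low exposure psbB had 11.06, 11.23 and 10.54, between those groups and overlapping neither. It fell by 0.82 ± 0.21 from clean air (adjusted p = 0.0181), a call lost without clean air plant 2 or 3 or low exposure plant 3 (differences between -0.97 and -0.62, adjusted p up to 0.0664). High exposure was in turn lower than low exposure by 0.91 on the log2 scale (-0.91, adjusted p = 0.00426).

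psbT, a small subunit encoded next to psbB, was as low at the low dose. It had 10.38, 9.99 and 10.50 at high exposure and 10.26, 10.08 and 9.89 at low exposure, and 10.97, 11.07 and 11.27 under clean air. It fell by 0.82 ± 0.21 at high exposure (adjusted p = 0.00679) and by 1.03 ± 0.21 at low exposure (adjusted p = 0.00729), both whichever plant was left out. Between the 2 doses it was not called (0.21, adjusted p = 0.431).

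The remaining photosystem II calls at high exposure were smaller and rested on single plants. psbN, an assembly factor whose gene lies between psbT and psbH, rose by 0.63, with 8.13, 7.52 and 7.37 against 6.97, 7.06 and 7.11 under clean air. That call was lost without clean air plant 1 or high exposure plant 1, and the difference was 0.40 without that high exposure plant (adjusted p up to 0.0565). It was also lost with spike-in scaling (adjusted p = 0.0598). psbH fell by 0.54, psbE by 0.42 and psbF by 0.23, the last being the cytochrome b subunits of the complex together with psbE. The psbH and psbF calls (adjusted p = 0.0408 and 0.0438) were each lost without any 1 of 7 plants: clean air plants 1, 2 and 3 and high exposure plants 1 and 2 for both, with outside plant 3 and low exposure plant 2 for psbH and outside plant 1 and low exposure plant 1 for psbF. Without high exposure plant 1 the psbH difference was -0.30. The psbF call was also lost under 8 other processing settings (adjusted p up to 0.208) and the psbH call under 6 (up to 0.0913), spike-in scaling among them for both. The psbE call (adjusted p = 0.0297) was lost without clean air plant 1 or 2 or high exposure plant 1 or 2 (adjusted p up to 0.0923), and with no filter, median centring or outside plants as control (up to 0.0624). psbM, a small subunit, did not pass the test, with 14.49, 14.41 and 14.50 at high exposure against 14.67, 14.35 and 14.37 under clean air (0.01, adjusted p = 0.963).

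Between high and low exposure, psbI, another small core subunit, had 12.51, 12.24 and 12.69 at high exposure, against 13.21, 13.55 and 13.48 at low exposure, with no overlap. It fell by 0.93 ± 0.18 (adjusted p = 0.00158). psbJ, also a small subunit, fell by 0.36 (adjusted p = 0.0109), a call lost with spike-in scaling (adjusted p = 0.15). psbD, which encodes a reaction centre protein, fell by 0.80 (adjusted p = 0.0294). That call was lost without low exposure plant 2 or 3 or high exposure plant 1 or 2 (adjusted p up to 0.116), and the difference was -0.50 without high exposure plant 1. It was also lost with no filter, spike-in scaling or only the arrays of the 2 groups (adjusted p up to 0.075).

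The cytochrome b6f complex, which links the photosystems, had 3 of 6 tested genes higher and none lower at high exposure. The shares of all probe sets were 22.8% higher and 30.1% lower, and the calls here were of small subunits and of petD. petL had 11.24, 10.96 and 11.30 at high exposure, against 9.38, 9.59 and 9.27 under clean air, and rose by 1.75 ± 0.37, or 3.36-fold (adjusted p = 0.00227). At low exposure petL, with 9.39, 9.27 and 10.12, overlapped clean air (0.18, adjusted p = 0.765), and high exceeded low exposure by 1.57 (adjusted p = 0.00473). petN had 7.19, 6.82 and 7.66 at high exposure, against 5.76, 5.35 and 5.39 under clean air, and rose by 1.72 ± 0.24 (adjusted p = 0.000138). The low exposure plants, at 6.04, 6.32 and 6.36, lay between these groups without overlap. Their rise of 0.74 over clean air (adjusted p = 0.0437) was lost without outside plant 1, clean air plant 2 or 3, any 1 of the low exposure plants or high exposure plant 1 (adjusted p up to 0.134), and with no filter, spike-in scaling or outside plants as control (up to 0.275).

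petD, a membrane subunit, rose by 0.75 at high exposure, at levels near the filter (4.56, 5.05 and 5.39 against 4.14, 4.17 and 4.43). The call was lost without clean air plant 1 or 2 or high exposure plant 2 or 3 (adjusted p up to 0.103) and with spike-in scaling (0.115), while the rise of 1.04 over low exposure was called whichever plant was left out (adjusted p = 0.00555). The genes of the 2 large cytochromes did not pass the test: petA, for cytochrome f, differed by 0.37 (adjusted p = 0.0612, called without low exposure plant 1 at 0.029), and petB, for cytochrome b, by -0.09 (adjusted p = 0.503). petB had 14.66, 14.69 and 14.72 at high exposure, against 14.92, 14.70 and 14.71 under clean air.

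The plastid ATP synthase had 1 of 6 genes higher and 2 lower at high exposure, where 52.9% of all probe sets were called. The membrane sector genes atpH, for the proton-carrying ring subunit, and atpF, for a stalk subunit, were lower at high exposure. atpH had 10.27, 10.39 and 11.28 at high exposure, against 12.09, 12.10 and 11.81 under clean air, and fell by 1.35 ± 0.29 (adjusted p = 0.0026). atpF had 10.52, 10.94 and 11.76 at high exposure, against 12.25, 12.44 and 12.29 under clean air, and fell by 1.26 ± 0.28 (adjusted p = 0.0034). For both genes no high exposure plant reached the clean air range, and plant 3 was the highest of its group. atpI, also of the membrane sector, was not called (0.58, adjusted p = 0.103). Of the catalytic head genes, atpE, for the epsilon subunit, rose by 0.30 ± 0.09 (adjusted p = 0.0132), a call lost without clean air plant 3 (adjusted p = 0.0537), with no filter and with spike-in scaling (up to 0.517). atpB and atpA, for the catalytic and regulatory subunits, were not called at high exposure (0.09 and -0.34).

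At low exposure atpE rose by 0.41 (adjusted p = 0.00837) and atpB by 0.30 (adjusted p = 0.0222). atpB had 15.34, 15.29 and 15.28 at low exposure, against 15.05, 15.05 and 14.90 under clean air, without overlap. The atpB call was lost without clean air plant 2 or 3 or low exposure plant 1 or 2 (adjusted p up to 0.101), and both calls were lost with no filter and with spike-in scaling (up to 0.594 for atpB and 0.298 for atpE). The atpB call was also lost without a variance trend and with only the arrays of the 2 groups.

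The NDH complex returns electrons to the plastoquinone pool in cyclic electron flow. It had 3 of 9 tested genes higher and 1 lower at high exposure, beside calls for 52.9% of all probe sets. ndhJ and ndhK, which encode subunits of the arm facing the stroma, rose together. ndhJ had 11.87, 11.88 and 12.12 at high exposure, against 10.57, 10.67 and 10.25 under clean air, a difference of 1.46 ± 0.15 (adjusted p = 2.36e-05). ndhK had 9.96, 10.02 and 10.35 at high exposure, against 8.76, 8.76 and 8.36 under clean air, a difference of 1.49 ± 0.26 (adjusted p = 0.000653). Both were also higher at high than at low exposure, by 1.14 (adjusted p = 0.000151) and 1.00 (adjusted p = 0.008). The remaining gene of their unit, ndhC, which is transcribed first, stayed within the spread, with 13.20, 13.24 and 13.39 against 13.35, 13.23 and 13.18 (0.02, adjusted p = 0.856).

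ndhH, for another subunit of the stroma-facing arm, showed the deepest fall of all members. It had 4.64, 6.25 and 7.32 at high exposure, against 8.69, 8.45 and 8.32 under clean air, a difference of -2.42 ± 0.63 or 5.34-fold (adjusted p = 0.00765). The high exposure plants did not overlap the clean air plants but ranged over more than 2 log2 units, and the difference was between -3.04 and -1.70 as plants were left out. Against low exposure, at 7.06, 8.53 and 8.54, ndhH fell by 1.97 (adjusted p = 0.0227). That call was lost without low exposure plant 2 or 3 or high exposure plant 1 (adjusted p up to 0.0821), and the difference was -1.26 without the high exposure plant. It was also lost with no filter or only the arrays of the 2 groups (adjusted p up to 0.066). ndhD rose by 0.42 at high exposure (adjusted p = 0.0307), a call lost without clean air plant 3 or high exposure plant 1 or 3 (adjusted p up to 0.114) and with no filter, a replicate block or spike-in scaling (up to 0.351). ndhE, a membrane subunit, had 11.22, 11.03 and 10.88 at high exposure, against 10.76, 10.43 and 10.08 under clean air, and was not called (0.62, adjusted p = 0.143). It was called without outside plant 2 (adjusted p = 0.0345).

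rbcL, which encodes the large subunit of rubisco, the enzyme that fixes carbon dioxide, moved in opposite directions at the 2 doses. It had 10.54, 10.73 and 11.43 at high exposure, against 9.32, 8.88 and 9.56 under clean air, and rose by 1.65 ± 0.34, or 3.13-fold (adjusted p = 0.00207). At low exposure it had 7.43, 8.36 and 8.61, below all clean air plants, and fell by 1.12 ± 0.34 (adjusted p = 0.0376). The fall was less firm than the rise. Its call was lost without any 1 of the clean air plants, low exposure plant 1 or 2 or high exposure plant 2 (differences between -1.36 and -0.77, adjusted p up to 0.13). It was also lost with no filter, median centring or only the arrays of the 2 groups (adjusted p up to 0.0946). The difference between the doses was 2.77 ± 0.34, or 6.81-fold (adjusted p = 9.33e-05), with no overlap and called whichever plant was left out. Plants outside the chamber, at 9.55, 8.73 and 9.33, overlapped the clean air plants.

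The subunits of the plastid-encoded RNA polymerase, which lie in 1 unit in the order rpoB, rpoC1 and rpoC2, differed along that order. rpoB had 3.51, 4.62 and 5.03 at high exposure, against 6.78, 5.95 and 6.33 under clean air, and fell by 1.96 ± 0.41, or 3.90-fold (adjusted p = 0.00199). As high exposure plant 1 lay below the filter level of 4, the size of the rpoB fall depends on a value near the bottom of the scale. rpoC1, with 10.84, 11.06 and 11.36 against 11.44, 10.86 and 10.94, was not called (0.01, adjusted p = 0.983). rpoC2 had 8.72, 9.43 and 9.65 at high exposure, against 8.02, 7.45 and 7.58 under clean air, and rose by 1.58 ± 0.39 (adjusted p = 0.00525). The first gene was thus lower, the middle gene within the spread and the last gene higher. rpoA, which is transcribed elsewhere in the genome, was not called (0.27, adjusted p = 0.302). At low exposure rpoC2 had 7.97, 9.39 and 9.31, with plant 1 inside the clean air range. Its rise of 1.21 (adjusted p = 0.0439) was lost without outside plant 1, clean air plant 2 or 3, low exposure plant 2 or 3 or high exposure plant 2 or 3 (adjusted p up to 0.145), and under 5 other processing settings (up to 0.127).

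Among 18 tested probe sets of plastid ribosomal proteins, 7 were higher and 4 lower at high exposure, and 7 were higher and none lower at low exposure. Over all probe sets, 22.8% were higher and 30.1% lower at high exposure, and 11.8% higher and 11.4% lower at low exposure. Small-subunit genes led the rises. rps2 had 11.19, 11.44 and 11.84 at high exposure, against 10.10, 9.81 and 9.64 under clean air, and rose by 1.64 ± 0.30 (adjusted p = 0.00102). rps4 had 13.68, 13.55 and 13.60 at high exposure, against 12.44, 12.22 and 12.00 under clean air, and rose by 1.39 ± 0.18 (adjusted p = 8.35e-05). rps7 had 13.39, 13.15 and 13.03 at high exposure, against 11.58, 11.68 and 11.51 under clean air, and rose by 1.60 ± 0.19 (adjusted p = 4.81e-05). No high exposure plant overlapped a clean air plant for these genes.

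All 3 were also higher at low exposure than under clean air, by 1.44 for rps2 (adjusted p = 0.00859), 1.07 for rps4 (adjusted p = 0.00308) and 0.85 for rps7 (adjusted p = 0.0101), whichever plant was left out. rps7 rose further between low and high exposure (0.75, adjusted p = 0.0065), whereas rps2 and rps4 did not pass the test between doses (0.20, adjusted p = 0.61, and 0.31, adjusted p = 0.161). The 2 probe sets of rps12 rose by 1.63 (244939_at, adjusted p = 0.000251) and 1.38 (244940_at, adjusted p = 0.000119) at high exposure. They disagreed at low exposure, where 244940_at rose by 0.84 (adjusted p = 0.00994) and 244939_at was not called (0.06, adjusted p = 0.879). rpl20 and rps15 also rose at high exposure, by 0.97 (adjusted p = 0.0227) and 0.96 (adjusted p = 0.0131). The rpl20 call was lost without clean air plant 2 or 3 or high exposure plant 2 or 3 (adjusted p up to 0.0703), and the rps15 call without clean air plant 3 or high exposure plant 3 (adjusted p up to 0.054). Both were also lost with spike-in scaling (adjusted p = 0.104 for rpl20 and 0.0815 for rps15), and the rpl20 call with no filter.

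The falls at high exposure were of large-subunit genes in 1 long ribosomal protein unit. rpl36 had 9.72, 10.58 and 10.91 at high exposure, against 11.94, 11.86 and 11.33 under clean air, and fell by 1.31 ± 0.35 (adjusted p = 0.00917). rpl22 fell by 1.46 (adjusted p = 0.0224) and rpl14 by 1.35 (adjusted p = 0.0183). Both calls were lost without clean air plant 1 or 2 or high exposure plant 1 (adjusted p up to 0.0913 for rpl22 and 0.0774 for rpl14), and the rpl22 difference was -0.97 without the high exposure plant. Both were also lost with no filter and with outside plants as control (adjusted p up to 0.157 for rpl22 and 0.081 for rpl14). For rpl36, rpl22 and rpl14 alike, high exposure plant 1 was the lowest of all 12 arrays.

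rpl23, which heads that unit, joined rbcL in having opposite calls at the 2 doses. It had 12.52, 12.81 and 13.01 at high exposure, against 13.65, 13.26 and 13.12 under clean air, and fell by 0.56 ± 0.21 (adjusted p = 0.0407). At low exposure it had 14.12, 14.39 and 14.19, above all clean air plants, and rose by 0.89 ± 0.21 (adjusted p = 0.0127). The fall was lost without outside plant 1, clean air plant 1 or 2, low exposure plant 1 or high exposure plant 1 or 2 (adjusted p up to 0.146), and the rise without clean air plant 3 (0.0542). The rise was also lost with spike-in scaling (adjusted p = 0.107), and the fall under 6 other processing settings (up to 0.108). Between high and low exposure the difference was -1.46 ± 0.21 (adjusted p = 0.000234), whichever plant was left out. Its neighbour rpl2 rose by 0.85 at low exposure (adjusted p = 0.00288, and 0.0552 with spike-in scaling), fell by 0.70 between high and low exposure (adjusted p = 0.00146) and was not called between high exposure and clean air (0.14, adjusted p = 0.396). rpl32 rose by 0.46 at low exposure (adjusted p = 0.0335), a call lost without clean air plant 2 or 3 or any 1 of the low exposure plants (adjusted p up to 0.135) and under 5 other processing settings (up to 0.382).

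The other plastid genes have roles in assembly, lipid synthesis and import. At high exposure 3 of 7 tested were higher and 1 lower, beside calls for 52.9% of all probe sets. ccsA, needed to attach haem to cytochromes, had 13.99, 13.83 and 13.91 at high exposure, against 13.14, 13.02 and 12.62 under clean air, and rose by 0.98 ± 0.14 (adjusted p = 0.000225). accD, for a subunit of the acetyl-CoA carboxylase that starts fatty acid synthesis, had 10.64, 10.90 and 11.48 against 9.83, 9.89 and 9.67 and rose by 1.21 ± 0.35 (adjusted p = 0.013). The accD call was lost without high exposure plant 3 (0.97, adjusted p = 0.0558). Both genes were also higher at high than at low exposure (0.64, adjusted p = 0.0038, and 1.29, adjusted p = 0.0101). The photosystem I assembly factors moved apart. ycf3 rose by 1.03 ± 0.28 (adjusted p = 0.00951), with 7.06, 7.75 and 7.80 against 6.71, 6.45 and 6.33. ycf4 fell by 1.15 ± 0.31 (adjusted p = 0.0099), with 9.82, 10.41 and 11.11 against 11.79, 11.56 and 11.43. Set against plants outside the chamber, the ycf4 call was lost (adjusted p = 0.0779). clpP, for a protease subunit, was not called (0.26, adjusted p = 0.341).

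Because neighbours in a unit had moved apart, the tested genes were set out along 13 plastid transcription units. These units come from general knowledge of the plastid genome, with the gene order checked in RefSeq, and were put together after the values had been seen, so no test was made. The counts below depend on the gene at which each unit is taken to start and end. For example, rps15, numbered next to ndhH on the array, was not placed in the unit of ndhH, and rose by 0.96 at high exposure. At high exposure the gene transcribed last had a higher difference from clean air than the gene transcribed first in 10 of 13 units, and the median of last minus first was 0.84. Of the first genes 3 were called higher and 6 lower, and of the last genes 7 were called higher and none lower. Leaving out a low exposure or outside plant cannot change the count at high exposure. The order last above first held in 10 of 13 units at high exposure whichever high exposure or clean air plant was left out. At low exposure it held in 10 of 13 units with a median of 0.22 (9 of 13 without clean air plant 2 or low exposure plant 3, and 8 of 13 with outside plants as control), between high and low exposure in 9 of 13 with a median of 0.72, and between clean air and outside in 7 of 13 with a median of 0.02. That last count was 10 of 13 without outside plant 2.

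The widest contrast was in rpoB to rpoC2, where the differences at high exposure were -1.96 at the first gene and 1.58 at the last. In the unit of psbB the values in order were -1.73 for psbB, -0.82 for psbT, -0.54 for psbH, -0.09 for petB and 0.75 for petD. In the unit of ndhH they were -2.42 for ndhH, -0.38 for ndhA, 0.09 for ndhI, -0.64 for ndhG, 0.62 for ndhE, 0.61 for psaC and 0.42 for ndhD. The unit of psaA, in which rps14 was too dim to test, had -1.31 and then 0.60 at psaB.

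The 3 units that ran the other way at high exposure began with a strongly raised gene: rps2 (1.64) ahead of atpA (-0.34), psaI (1.96) ahead of petA (0.37), and petL (1.75) ahead of rps18 (-0.41). As the last gene of these units was below the first, their lowest value could not be at the first gene. It was at atpH (-1.35), ycf4 (-1.15) and rpl33 (-0.56). The 3′ minus 5′ signal of the nuclear control genes was also higher at both exposures than under clean air, by the values given above, and its part in this order was not tested. Differences within 1 unit on the same arrays are not affected by scaling the arrays, so under such scaling the count at high exposure could not change. It was also 10 of 13 with quantile normalization, which can change such differences.

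**Figure D3:**
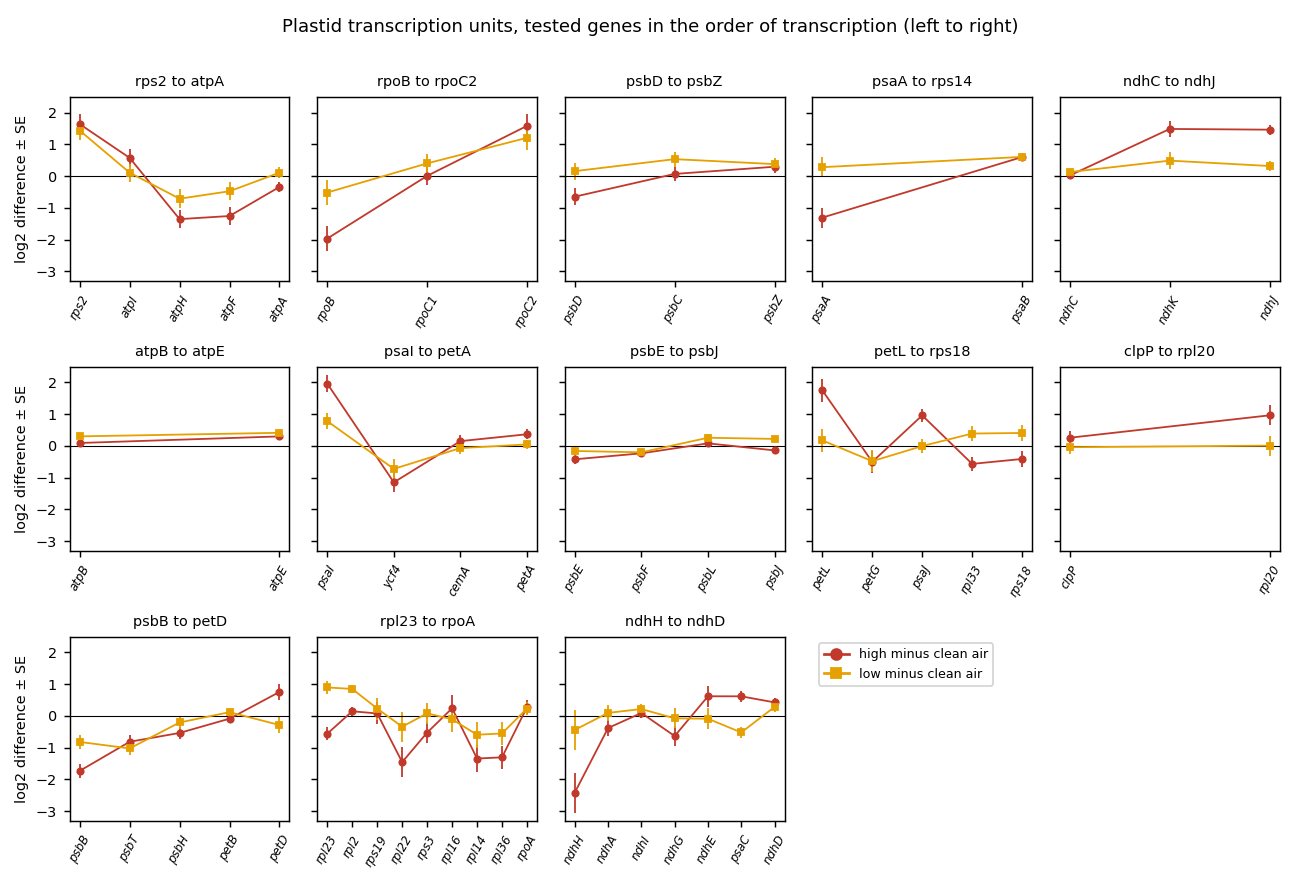
Log2 difference ± SE of the tested genes of 13 plastid transcription units, in order of transcription from left to right, for high exposure minus clean air (red circles) and low exposure minus clean air (yellow squares). Lines join the genes of a unit. In 10 of 13 units the red line ends above its start, most steeply in rpoB to rpoC2 (-1.96 at rpoB and 1.58 at rpoC2).

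Only 7 of the 13 named mitochondrial members could be tested. At high exposure 2 of them (28.6%) were called, both higher, against 52.9% of all probe sets. nad4, for a membrane subunit of respiratory complex I, had 9.62, 9.57 and 9.53 at high exposure, against 8.75, 9.06 and 9.20 under clean air. The high exposure plants lay close together above all other plants, and nad4 rose by 0.57 ± 0.14 (adjusted p = 0.00653) and by 0.69 ± 0.14 over low exposure (adjusted p = 0.00239). The call against clean air was lost with spike-in scaling (adjusted p = 0.0959). At low exposure nad4 averaged 8.88 ± 0.17 (SD, n = 3), overlapped clean air and was not called (-0.12, adjusted p = 0.576).

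ccb382, a cytochrome c maturation gene, had 5.37, 5.21 and 5.14 at high exposure, against 4.15, 3.89 and 3.58 under clean air, and rose by 1.36 ± 0.26 (adjusted p = 0.00115). As 2 of the clean air plants lay below the filter level of 4, the size depends on values near the bottom of the scale, and it was 1.19 with values below 4 raised to 4. At low exposure it had 4.68, 4.64 and 5.60 and rose by 2.15-fold (adjusted p = 0.0128), or by 0.93 on the log2 scale with values below 4 raised to 4. That call was lost without clean air plant 3 (0.79, adjusted p = 0.0559), with spike-in scaling and with only the arrays of the 2 groups. Plants outside the chamber, with 4.82, 4.68 and 4.68, were also above the clean air plants, a difference of -0.85 for clean air that missed the threshold (adjusted p = 0.0992, called without low exposure plant 3 at 0.0425). Set against the outside plants, neither dose was called for ccb382 (adjusted p = 0.115 at high exposure and 0.484 at low exposure).

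nad4L, for a small membrane subunit of complex I, was lower at low exposure, with 4.90, 4.83 and 4.97 against 5.42, 5.90 and 6.84 under clean air (-1.15 ± 0.37, adjusted p = 0.0439). The clean air plants were spread widely, and the difference was -0.76 without clean air plant 3. The call was lost without clean air plant 2 or 3 or any 1 of the low or high exposure plants (adjusted p up to 0.163) and under 4 other processing settings (up to 0.105). At high exposure nad4L overlapped clean air (-0.42, adjusted p = 0.359).

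The other tested mitochondrial members were not called at either dose: nad9 (complex I), cox2 (complex IV), ccb452 (cytochrome c maturation) and the joint probe set of rps3 and rpl16. nad9 differed by 0.11 at high exposure and by -0.93 at low exposure (adjusted p = 0.843 and 0.121). Its difference of 1.04 between the doses (adjusted p = 0.0539) was called without outside plant 2 or 3, clean air plant 3 or low exposure plant 3. nad6, a further complex I gene, passed 4 on 2 arrays, both at high exposure, and was not tested. It had 3.84, 4.79 and 4.32 at high exposure and 2.42, 2.41 and 2.52 under clean air. The clean air values lay near the floor of the scale, so no rise is counted and no size is given. The nuclear genome holds copies of mitochondrial DNA, so transcripts of such copies cannot be told apart from those of the mitochondrion here.

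**Figure D4:**
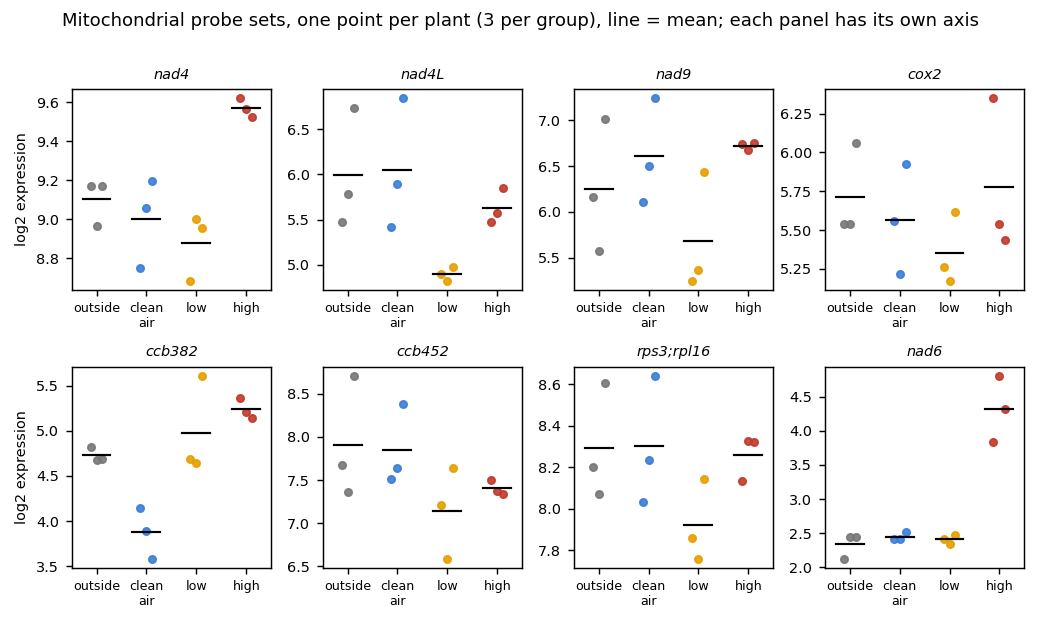
Log2 expression of 8 mitochondrial probe sets in each plant (points) with the group mean (line), for plants outside the chamber and under clean air, low and high formaldehyde. Each panel has its own vertical axis. nad4 lies above all other plants at high exposure, nad4L lies below all others at low exposure, and ccb382 lies lowest under clean air.

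Of the 35 unnamed members, 9 were tested. At high exposure 1 was called higher and 4 lower (55.6%), against calls for 52.9% of all probe sets. 244990_s_at had 6.16, 6.75 and 6.85 at high exposure, against 3.59, 3.32 and 3.65 under clean air, and 3.70, 3.86 and 3.98 at low exposure. It was above the filter level of 4 only at high exposure, where it was at least 6.01-fold higher than clean air, counted against that level. It was tested through those arrays alone, so its call is no support and no exact difference is given. 244981_at had 7.67, 8.84 and 9.33 at high exposure, against 10.65, 10.77 and 10.26 under clean air, and fell by 1.95 ± 0.46 (adjusted p = 0.00415). 244923_s_at fell by 0.88 at high exposure (adjusted p = 0.0267), a call lost without clean air plant 1 or 3 or high exposure plant 3 (adjusted p up to 0.107) and under 3 other processing settings (up to 0.106). At low exposure 244906_at fell by 0.96 (adjusted p = 0.0368), a call lost without clean air plant 2 or 3 or low exposure plant 1 or 2 (adjusted p up to 0.135) and under 4 other processing settings (up to 0.078).

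Being placed in the chamber under clean air did not produce a call. In the limma fit no member passed between clean air and outside, against 3.04% of all probe sets, and 9 of the 85 had an unadjusted p under 0.05 (10.6%, against 20.0% of all probe sets). The largest plastid difference was 0.75, for ndhG, with 7.02, 7.07 and 6.76 under clean air, against 6.52, 5.36 and 6.70 outside, where plant 2 stood apart (adjusted p = 0.217). The median plastid difference was 0.17, and it was 0.03 without outside plant 2. ndhJ came closest among plastid genes (0.58, adjusted p = 0.067) and was called without clean air plant 3 (0.0485).

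For setting beside the organelle genes, nuclear genes whose products work in the same complexes were listed, but few had a probe set named in the annotation used here. Of 33 nuclear photosystem subunits, 3 were tested and none was called at either dose. LHCB4.1, a minor antenna protein, averaged 14.77 ± 0.06 at high exposure and 14.76 ± 0.05 under clean air (SD, n = 3 each), a difference of 0.01 (adjusted p = 0.967), and PSAE-1 and PSBW differed by -0.01 and -0.04. Of 24 nuclear respiratory chain subunits, 10 were tested. At high exposure, where 30.1% of all probe sets were lower, none of the 10 was higher and 5 were lower. The median difference over the 10 was -0.27, against -0.10 over all probe sets. The deepest fall was that of AT5G40810, a cytochrome c1 gene of complex III, at 10.31 ± 0.12 against 10.96 ± 0.16 (-0.65, adjusted p = 0.00173). At low exposure 1 was higher and 1 lower, against 11.8% and 11.4% of all probe sets. Of 12 genes for organelle RNA processing and decay, 1 was tested, AT5G14580, a mitochondrial polynucleotide phosphorylase. Its means were 3.99 at high exposure, 4.33 at low exposure and 2.92 under clean air, near or below the filter level of 4. It passed the filter at least in part through the exposed plants. Its calls at both doses are therefore no support, and no size is given. Of 9 nuclear genes for organelle transcription, 1 had a probe set and was too dim to test, and none of 12 polymerase-associated proteins had one.

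Markers of leaf mesophyll, the chloroplast-rich cell type that the leaf label implies, were bright. Their summed log2 level over the 3 of 7 with a probe set lay between 15.10 and 15.33 at high exposure, 15.74 and 16.09 at low exposure, 15.75 and 15.98 under clean air and 15.81 and 15.98 outside. All 3 fell at high exposure, RCA by 0.26, PRK by 1.14 and SBPASE by 1.35 (adjusted p = 0.0221, 0.000371 and 0.000461), which are photosynthetic enzymes or their activator. The phloem marker SWEET11 (1 of 2) fell by 0.78 at high exposure (adjusted p = 0.0128). The trichome marker TRY (1 of 2) lay between 2.71 and 3.20 at high exposure, below the filter level, against 4.29 and 6.13 under clean air (adjusted p = 0.00476), so the size of its fall is not measured. The guard cell marker FMA (1 of 2) was not called at either dose. The dividing cell marker AUR1 (1 of 2) was above the filter level only at low exposure, with 4.66 ± 0.27 there and 3.35 ± 0.44 under clean air (SD, n = 3 each), and was tested through those arrays alone. None of 4 root markers had a probe set. The part of any change in cell makeup in the organelle values was not tested.

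Over the 12 arrays, the members most like psaC were accD, rbcL, rpl20, rps15 and petL (Pearson r between 0.91 for accD and 0.85 for petL). Over all tested probe sets they were AT4G07990, AT5G19480, 248522_at, AT4G19110 and PDIL5-1 (r between 0.95 and 0.93). The members most like nad4 were rbcL (0.89), psaJ (0.88), 244990_s_at (0.82) and psaC (0.77), with an unnamed member between these last, and AT3G56880 led over all probe sets (0.95). These values describe 12 arrays in 4 groups that share their depth of signal and labelling.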

How the data were processed

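Each of 12 arrays held labelled RNA of 1 plant. The values are the log2 signals of a table that the authors deposited. GCRMA, which corrects background and normalizes across arrays, is the tool named in the submitters' processing notes, without version or options. That the scale is log2 was inferred from its range. Values near the floor of 2.11, common to every array, carry no order. Gene names came from GEO's platform annotation (91 of the 126 block probe sets had an entry), with mitochondrial genes matched by symbol and plastid gene order from RefSeq TAIR10.1. The 64 control probe sets were left out.

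The deposited values were fitted with limma 3.58.1 in R 4.3.3 (lmFit, eBayes with trend) over 4 groups, for the 13874 of 22746 probe sets above log2 4 on at least 3 arrays, and adjusted by Benjamini-Hochberg over all of them. The fit was tested on simulated data. Figures were drawn with matplotlib 3.10.9. Precision is limited by having 3 arrays in a group.

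Members and lists were chosen with earlier results of these data known. Named were nad4, nad4L, ccb382, psaC and ndhE, per comparison the 5 largest rises and falls among called members whose groups do not overlap, the brightest of each class and up to 2 unnamed rises and falls. Further genes, among them those given for their place in a transcription unit, were named after their values were seen. Alternatives were other filters, normalizations, spike-in scaling, weights, controls, a replicate block and leaving out each plant.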

Additional observations from a re-analysis of the deposited data

Results flagged for a closer look

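The plastid genes rbcL and rpl23 were called in opposite directions at the 2 doses against the same clean air plants, and the test between the doses called both. Against clean air, the rbcL fall was lost under 9 of 23 alternatives, the rpl23 fall under 12 and the rpl23 rise under 2. The calls between the doses were made under every alternative. For rbcL the difference between high and low exposure was 2.77 on the log2 scale, and every high exposure plant lay above clean air while every low exposure plant lay below it. For rpl23 that difference was -1.46, with every high exposure plant below clean air and every low exposure plant above it. The 2 doses were separate chamber conditions, and the labels do not say which plants shared a run.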

How the results depend on the processing

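No difference changed sign past the threshold under any alternative. Of the member calls, 25 of 46 (high exposure against clean air), 5 of 18 (low exposure against clean air) and 24 of 34 (high against low exposure) were made under every alternative. The low exposure count of 18 was 10 with no filter, 10 with spike-in scaling and 11 with only the arrays of the groups compared. Leaving out each plant in turn gave between 35 and 49 calls for high exposure against clean air, 8 and 21 for low exposure against clean air, 28 and 36 for high against low exposure, and 0 and 1 for clean air against outside. That last count was 1 with spike-in scaling and 2 with array weights. Spike-in scaling moved the median of all probe sets to -0.27, against -0.10, at high exposure, to -0.18, against -0.01, at low exposure, and to 0.28, against 0.02, for clean air against outside. The share of higher calls among all calls was then 32.6% against 43.0%, 24.8% against 50.8%, and 89.0% against 55.9%, and the plastid median at high exposure was -0.03 against 0.14. The causes were not tested. Same-numbered plants did not deviate together (correlations between -0.33 and 0.33 over 18 pairs, median 0.05), so the numbers pair nothing. With the replicate block the counts were 43, 17, 35 and 0. With plants outside as the control, 44 members were called at high exposure and 26 at low exposure. Signal over background was too low to test 36 members, 26 of them unnamed.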

Other observations

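The bioC hybridisation control read 7.23 ± 0.23 at high exposure, 8.78 ± 0.13 at low exposure, 6.53 ± 0.26 under clean air and 6.99 ± 0.21 outside (log2, SD, n = 3 each), and was not among the controls used for spike-in scaling. The median SD between plants over the 69 tested plastid members was 0.25 at high exposure, 0.28 at low exposure, 0.16 under clean air and 0.36 outside.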
